A study of Mus musculus with 48 samples.

Results

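The 10 genes described here build, coat or empty lipid droplets: *Plin2*, *Plin4* and *Plin5*, *Cidea*, *Cideb* and *Cidec*, *Fitm1* and *Fitm2*, *G0s2* and *Pnpla2*. They were chosen by name, as every probe of the array whose gene name is one of these and which is not a control. All 10 genes passed the filter on dim probes, through 14 probes, of 22029 gene names and 33323 probes tested. The rule is by name alone, but the genes were chosen with earlier results of these data known, so the counts below are not free of that choice. Liver RNA of 48 male C57Bl6J mice aged 20 weeks was hybridised to 48 Agilent arrays of 1 colour, in 6 groups of 8 mice. *WT* mice, *Pparα* hep-/- mice and *Pparα*-/- mice had received a control diet (CTRL) or a high fat diet (HFD, 60% fat) for 12 weeks per the labels. In *Pparα* hep-/- mice an albumin-driven Cre recombinase removes exon 4 of a floxed *Pparα* in hepatocytes, so that other liver cells keep the gene. In *Pparα*-/- mice every cell lacks it. All mice were housed at thermoneutrality and killed in the fed state. The 8 mice of a group are separate animals and are the units of every test.

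A lipid droplet is a core of triglycerides and cholesterol esters under a single layer of phospholipids, to which proteins bind. Perilipins sit on that surface and limit the access of lipases. CIDE proteins exchange and fuse the contents of touching droplets, so that droplets grow. FIT proteins of the endoplasmic reticulum help droplets to form from newly made triglyceride. *Pnpla2* encodes ATGL, the lipase that takes the first fatty acid from a triglyceride, and *G0s2* encodes its protein inhibitor. In hepatocytes PPARα is a nuclear receptor that binds fatty acids and switches on genes of their oxidation, and several droplet genes are known among its targets. PPARγ, the related receptor of adipocytes, is known to switch on *Cidea*, *Cidec* and *Plin4*.

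Values are log2 normalized signals of 1 probe per gene, the one with the highest mean signal where a gene has several. A difference of 1 is 2-fold, and a level of one gene cannot be set against that of another. Calls rest on limma with a Benjamini-Hochberg adjusted p of at most 0.05 over all 33323 probes.

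Promoter sequences are shown for 3 of the genes because their levels depended on genotype, and because the receptor binds repeats of the letters AGGTCA. Each is the run of 250 bases before the start site, from RefSeq on GRCm38.p6, with AGGTCA or its complement TGACCT in capitals. *Plin2* lies at chr4:86670060-86670309 on the minus strand, *Plin5* at chr17:56117549-56117798 on the minus strand and *Fitm1* at chr14:55575424-55575673 on the plus strand.
Plin2: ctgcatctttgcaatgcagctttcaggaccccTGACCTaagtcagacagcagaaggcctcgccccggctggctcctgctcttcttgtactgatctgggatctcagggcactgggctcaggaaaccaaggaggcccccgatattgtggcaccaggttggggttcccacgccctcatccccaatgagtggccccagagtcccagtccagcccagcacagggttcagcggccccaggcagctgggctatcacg
Plin5: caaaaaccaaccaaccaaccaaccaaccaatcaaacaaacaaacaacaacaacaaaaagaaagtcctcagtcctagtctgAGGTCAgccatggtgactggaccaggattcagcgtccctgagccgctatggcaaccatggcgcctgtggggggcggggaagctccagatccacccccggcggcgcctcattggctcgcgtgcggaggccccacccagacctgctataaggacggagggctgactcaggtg
Fitm1: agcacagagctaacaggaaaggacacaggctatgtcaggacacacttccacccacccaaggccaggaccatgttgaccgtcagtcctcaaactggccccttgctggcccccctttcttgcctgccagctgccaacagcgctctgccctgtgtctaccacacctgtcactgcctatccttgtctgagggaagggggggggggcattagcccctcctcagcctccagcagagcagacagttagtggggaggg
The match in the *Plin2* window runs from -218 to -213 and that in the *Plin5* window from -170 to -165, counted from the start site. The *Fitm1* window holds none. Over windows of 300 bases (250 before and 50 after a start site, both strands) AGGTCA was found in 16.3% of 32851 promoters and in 3 of the 11 windows of the 9 genes searched, those of *Plin2* and *Plin5*. The repeat AGGTCANAGGTCA, with 1 free base between its copies, was in 0.0396% of the promoters and in 0 of the 11 windows. A match is a description of the letters and says nothing about binding.

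2 of the probes are shown for where they lie. The *Fitm1* probe spans 427 bases of the genome at chr14:56194734-56195160 (mm9, plus strand), so its 60 bases cross an intron and match spliced RNA. The *G0s2* probe at chr1:195098925-195098984 (mm9, minus strand) is one unbroken block that holds an ATG, in capitals.
Fitm1 probe: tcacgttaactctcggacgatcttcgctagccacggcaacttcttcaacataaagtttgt
G0s2 probe: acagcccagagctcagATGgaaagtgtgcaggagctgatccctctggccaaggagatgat
The *Plin4* and *Plin5* probes are 10910 bases apart on chromosome 17, and the *Fitm1* and *Cideb* probes 177781 bases apart on chromosome 14.

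Arrays have no read depth, and the number of mice limits the precision. Between 28234 and 38217 of 59305 spots per array were well above background, and 0 spots were saturated. The model weighted each array by how closely its probes followed the fitted group and wash batch means. A mouse unlike its group thus counts less, whatever the technical quality of its array. Weights ran from 0.189 to 2.53, and 4 arrays had a weight under 0.4. These were *WT* CTRL mouse 6 (0.208), *Pparα* hep-/- CTRL mouse 1 (0.189) and *WT* HFD mice 2 and 6 (0.343 and 0.372). Both wash batches held every genotype and diet. *WT* HFD mice 1 and 2 stood apart from the other 6 mice of their group in most of the 10 genes, and some results are also given without them. The 10 hepatocyte markers had a summed signal of 20.91 to 21.12 on the log2 scale on all 48 arrays, a sum set by the brightest of them. Quantile normalization gives the brightest probes nearly the same values on every array, so this sum cannot measure the share of hepatocytes. Of the 10 markers, 2, 2 and 2 were called lower on the HFD and 0, 1 and 1 higher in *WT*, *Pparα* hep-/- and *Pparα*-/- mice, where 10.1%, 10.8% and 12.6% of all probes were lower and 8.60%, 9.46% and 12.2% higher. *Cps1* of the urea cycle was lower in all 3 genotypes (-0.88, -0.53 and -0.71). On CTRL 3 were lower in each deletion than in *WT* mice, where 13.4% and 18.7% of all probes were lower, with *Hnf4a*, a hepatocyte transcription factor, at -0.36 and -0.43. Both tested *Ppara* probes read signal in every group, 13.26 to 15.24 and 11.36 to 13.51, and whether they lie in the deleted exon is not given in the sources used here, so they do not check the genotype labels. On the HFD both were called lower than in *WT* mice, without overlap, in *Pparα* hep-/- (-0.85 and -0.68) and *Pparα*-/- mice (-1.08 and -1.29). On CTRL the values were -0.42 and -0.10, the latter not called, and -0.65 and -1.11. In whole liver, fewer cells of a type and less RNA per cell cannot be told apart.

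**Figure D1:**
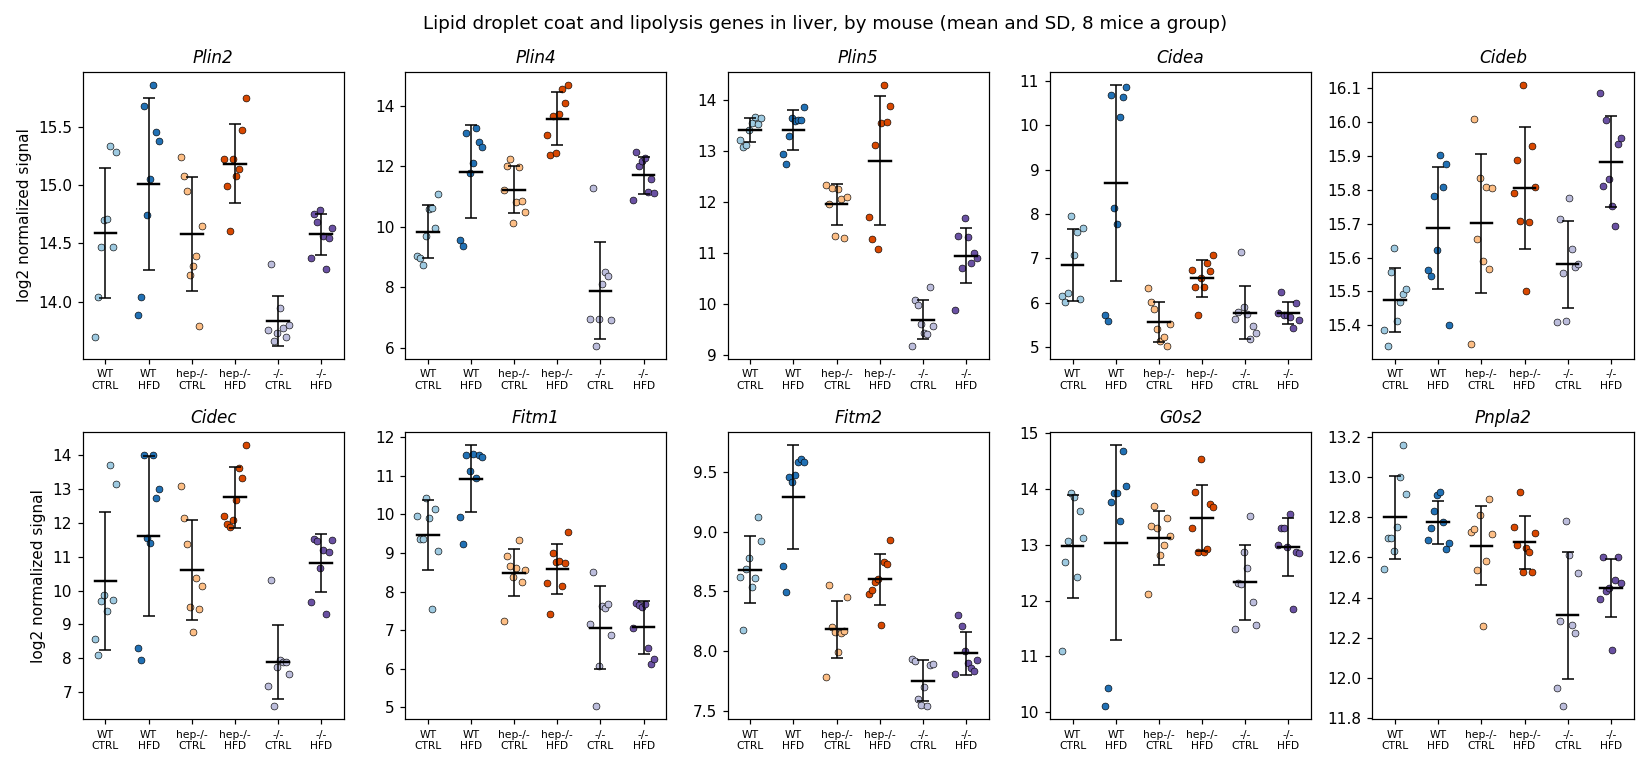
Log2 normalized signal (vertical axes, a separate scale for each gene that does not start at 0) of the 10 genes in each of 48 mice, by genotype and diet. Points are mice, bars the unweighted mean and the SD of 8 mice. *Fitm1* in *Pparα*-/- HFD mice (6.12 to 7.71) lies wholly below *WT* HFD mice (9.24 to 11.56), and 2 *WT* HFD mice lie apart in *Plin4*, *Cidea*, *Cidec* and *G0s2*.

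On the HFD, 6 of the 10 genes rose in *WT* mice (*Plin2*, *Plin4*, *Cidea*, *Cidec*, *Fitm1* and *Fitm2*), 6 in *Pparα* hep-/- mice (*Plin5* in place of *Fitm1*) and 5 in *Pparα*-/- mice (*Plin2*, *Plin4*, *Plin5*, *Cideb* and *Cidec*). Over all probes tested the HFD raised 8.60%, 9.46% and 12.2% in these genotypes and lowered 10.1%, 10.8% and 12.6%. No gene of the 10 was called lower on the HFD in any genotype over all arrays. The median log2 fold change of the 10 genes was 0.75, 0.53 and 0.45 in these genotypes, against medians of -0.01 to -0.02 over all probes. *Plin2*, *Plin4* and *Cidec* were called in all 3 genotypes, and without array weights only *Plin4* of the 10 was called in *Pparα* hep-/- mice.

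*Plin2* encodes perilipin 2, the main droplet coat of hepatocytes. Its signal ranged from 13.69 to 15.34 (median 14.59) in *WT* CTRL mice and from 13.88 to 15.86 (median 15.22) in *WT* HFD mice. In *Pparα* hep-/- mice it ranged from 13.79 to 15.24 (median 14.52) on the CTRL diet and from 14.61 to 15.75 (median 15.18) on the HFD. *Pparα*-/- mice had the lowest median on each diet, at 13.66 to 14.32 (median 13.76) on CTRL and 14.28 to 14.79 (median 14.60) on the HFD, and on each diet the ranges of the genotypes overlapped. The HFD raised *Plin2* by nearly the same amount in each genotype. The log2 fold change was 0.72 ± 0.21 (SE) in *WT* mice (limma adjusted p 0.0103), 0.69 ± 0.17 in *Pparα* hep-/- mice (0.00399) and 0.76 ± 0.18 in *Pparα*-/- mice (0.00197). The *WT* value was 0.56 (adjusted p 0.0539) without *WT* CTRL mouse 1, 0.42 (adjusted p 0.237) without array weights, 0.61 (0.0784) without a filter and 0.72 (0.078) in the fit to its own groups alone, and that of *Pparα* hep-/- mice was 0.61 (0.144) without array weights. *Plin2* was lower in *Pparα*-/- than in *WT* mice, by -0.64 ± 0.21 on CTRL and -0.60 ± 0.18 on HFD, the latter -0.43 (adjusted p 0.147) without array weights. Deletion in hepatocytes made no called difference, with 0.04 (95% interval -0.36 to 0.44) on CTRL and 0.02 (-0.35 to 0.38) on HFD.

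*Plin4* encodes perilipin 4, a coat of small new droplets in adipocytes and muscle. It changed most with diet among the 3 perilipins. Its signal was 8.74 to 11.09 (median 9.83) in *WT* CTRL mice, and on the HFD 6 *WT* mice were at 11.76 to 13.26 while mice 1 and 2 stayed at 9.57 and 9.37. In *Pparα* hep-/- mice the diets did not overlap, with 10.14 to 12.23 (median 11.03) on CTRL and 12.37 to 14.68 (median 13.67) on HFD. *Pparα*-/- CTRL mice held the lowest values of all, 6.08 to 8.52 in 7 mice and 11.27 in mouse 2, against 10.88 to 12.46 (median 11.81) on the HFD. The HFD thus raised *Plin4* 5.88-fold in *WT* (log2 2.56 ± 0.50, limma adjusted p 0.000281), 6.29-fold in *Pparα* hep-/- (2.65 ± 0.43, 2.11e-05) and 12.5-fold in *Pparα*-/- mice (3.64 ± 0.45, 1.6e-07). The difference between the rises in *Pparα*-/- and *WT* mice was 1.09 (95% interval -0.27 to 2.44) and was not called.

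The 2 deletions moved *Plin4* in opposite directions on the CTRL diet. Hepatocyte deletion gave more *Plin4* than *WT*, by 1.47 ± 0.49 on CTRL (limma adjusted p 0.022) and 1.57 ± 0.44 on HFD (0.00658), with 8 of 8 mice above the *WT* mean each time. Whole-body deletion gave less than *WT*, by -1.64 ± 0.51 on CTRL (0.0102) and, without a call, by -0.55 ± 0.44 on HFD. Set against each other, whole-body deletion was 8.64-fold below hepatocyte deletion on CTRL and 4.36-fold below it on HFD. With the mouse number as a replicate block the *Pparα* hep-/- over *WT* value on CTRL was 1.22 (adjusted p 0.0562). It was 1.32 (0.0634) without *WT* CTRL mouse 1, 1.36 (0.0519) without *WT* CTRL mouse 3, 1.34 (0.082) without array weights and 1.42 (0.062) without a filter.

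*Plin5* encodes perilipin 5, which tethers droplets to mitochondria and is abundant in oxidative tissue. It followed genotype more than diet. On the CTRL diet the 3 genotypes did not overlap, with 13.07 to 13.66 (median 13.47) in *WT*, 11.30 to 12.34 (median 12.07) in *Pparα* hep-/- and 9.19 to 10.33 (median 9.59) in *Pparα*-/- mice. Relative to *WT* mice the log2 differences were -1.48 ± 0.33 (limma adjusted p 0.00071) and -3.66 ± 0.34 (6.76e-12), and that between the deletions was -2.18 ± 0.31 (2.87e-07). These are ratios of 2.8, 12.7 and 4.54 between the groups. Within wash batches 1 and 2 the *Pparα*-/- against *WT* value was -3.35 and -3.93, and that between the deletions was -1.50 (adjusted p 0.0541) and -2.60.

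On the HFD *Plin5* stayed at 12.74 to 13.86 (median 13.59) in *WT* mice. *Pparα* hep-/- HFD mice fell into separate levels, with mice 1, 2 and 4 at 11.71, 11.28 and 11.09 and the other 5 at 13.12 to 14.29. *Pparα*-/- HFD mice were at 9.89 to 11.69 (median 10.95), wholly below *WT* mice. The HFD effect was 0.18 ± 0.34 in *WT* mice, which was not called, against 1.28 ± 0.29 in *Pparα* hep-/- mice (limma adjusted p 0.00141) and 1.25 ± 0.30 in *Pparα*-/- mice (0.00213). The differences of these effects from *WT* were 1.1 (95% interval 0.20 to 2.00, adjusted p 0.103) and 1.07 (0.15 to 1.98, adjusted p 0.104), so neither difference was called. The second was called in the fit to its own groups alone (1.08, adjusted p 0.00787). The first was called without *Pparα* hep-/- HFD mouse 1 (1.27, 0.0459), 2 (1.30, 0.0338) or 4 (1.22, 0.0493), the mice with the lowest values, whose removal raises it by construction. Without array weights the *Pparα* hep-/- effect was 0.87 (adjusted p 0.113). On HFD *Plin5* was -0.38 ± 0.30 from *WT* in *Pparα* hep-/- mice, with no call, and -2.60 ± 0.30 in *Pparα*-/- mice (9.13e-10).

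**Figure D2:**
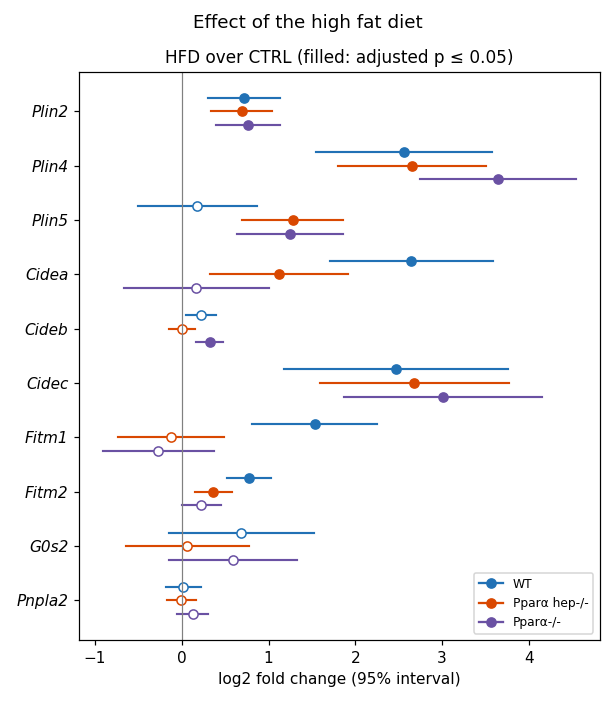
Log2 fold change of HFD over CTRL (horizontal axis) for each gene, with 95% intervals of the limma fit, in *WT*, *Pparα* hep-/- and *Pparα*-/- mice of 8 per group. Filled points have an adjusted p of at most 0.05. The intervals of *Plin2*, *Plin4* and *Cidec* lie above 0 in each genotype, whereas *Fitm1* lies above 0 in *WT* mice alone (1.53, against -0.12 and -0.27).

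*Cidea*, *Cideb* and *Cidec* encode the CIDE proteins. *Cidec* (FSP27 in adipocytes) builds large droplets, and *Cidea* is known from brown fat and from steatotic liver. *Cideb*, the form that healthy hepatocytes carry, also takes part in loading lipid onto lipoproteins.

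*Cidec* rose on the HFD in all 3 genotypes. Its signal in *WT* CTRL mice was 8.08 to 9.88 in 6 mice and 13.72 and 13.16 in mice 6 and 8. In *WT* HFD mice it was 7.96 to 14.02 (median 12.15), with mice 1 and 2 at 8.30 and 7.96. The levels were 8.78 to 13.10 (median 10.25) and 11.87 to 14.30 (median 12.43) in *Pparα* hep-/- CTRL and HFD mice. *Pparα*-/- CTRL mice were at 6.58 to 7.94 but for mouse 2 at 10.32, and *Pparα*-/- HFD mice at 9.32 to 11.52 (median 11.17). The ranges of the diets overlapped in each genotype, through those single mice in *WT* and *Pparα*-/- groups. The rise was 2.47 ± 0.64 in *WT* (limma adjusted p 0.00462), 2.68 ± 0.54 in *Pparα* hep-/- (0.00045) and 3.01 ± 0.57 in *Pparα*-/- mice (0.000155). In *WT* mice it was 2.41 (adjusted p 0.0572) in the fit to its own groups alone. Without array weights every mouse counts in full, and the rise was 1.35 (0.269) in *WT* and 2.18 (0.109) in *Pparα* hep-/- mice. Which mice moved it was not tested. In wash batches 1 and 2 the rise was 2.68 and 2.64 in *WT*, 3.14 and 2.41 in *Pparα* hep-/- and 3.24 and 2.91 in *Pparα*-/- mice.

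*Cidec* was lower in *Pparα*-/- than in *Pparα* hep-/- mice by -2.35 ± 0.58 on CTRL (limma adjusted p 0.00189) and by -2.02 ± 0.52 on HFD (0.00243), the latter with no overlap and -1.97 (0.0685) without array weights. Against *WT* mice it was -1.80 ± 0.65 on CTRL (0.0273), a call that was lost without *WT* CTRL mouse 4 (-1.72, 0.0533) or mouse 8 (-1.48, 0.0678), and -1.26 ± 0.56 on HFD (0.0607). Without *WT* HFD mice 1 and 2 the HFD value was -1.74 (adjusted p 0.00493), and it was also called with normexp (-1.29, 0.0474), 75th percentile scaling (-1.34, 0.0479) or a stricter filter (-1.29, 0.0457), and without *WT* HFD mouse 5 (-1.43, 0.0448) or *Pparα*-/- HFD mouse 3 (-1.39, 0.0488). Hepatocyte deletion gave 0.55 (95% interval -0.70 to 1.80) and 0.76 (-0.38 to 1.89), with no call.

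*Cidea* was highest in *WT* mice on the HFD. *WT* CTRL mice were at 6.01 to 7.96 (median 6.65), whereas 6 *WT* HFD mice were at 7.78 to 10.85 and mice 1 and 2 at 5.72 and 5.59. *Pparα* hep-/- mice were at 5.03 to 6.32 (median 5.46) and 5.72 to 7.08 (median 6.64) on the 2 diets. Values after whole-body deletion were 5.18 to 5.90 on CTRL except mouse 3 at 7.13, and 5.43 to 6.24 (median 5.72) on the HFD. These are dim values, and the probe was well above background on 3 of 8 *Pparα* hep-/- CTRL, 2 of 8 *Pparα*-/- CTRL and 6 of 8 *Pparα*-/- HFD arrays. Differences that involve these groups rest in part on values not well above background, so their sizes are uncertain. The HFD raised *Cidea* 6.25-fold in *WT* mice (log2 2.64 ± 0.47, limma adjusted p 7.46e-05), by 1.12 ± 0.39 in *Pparα* hep-/- mice (0.0384) and by 0.17 ± 0.41 in *Pparα*-/- mice, which was not called. The call in *Pparα* hep-/- mice was lost without *Pparα* hep-/- CTRL mouse 4, 5, 6, 7 or 8 or *Pparα* hep-/- HFD mouse 1, 6, 7 or 8, with values down to 1.00 (adjusted p 0.117, mouse 6 on HFD), and was 0.96 (0.359) without array weights. It was also lost with normexp background correction (0.78, 0.0887), in the deposited log2 table (1.06, 0.0567), without a filter (1.08, 0.118) and without the wash batch term (1.1, 0.0584).

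The rise of *Cidea* was smaller in *Pparα*-/- than in *WT* mice by -2.48 ± 0.62 (limma adjusted p 0.0059). The value was -2.93 and -2.68 in wash batches 1 and 2, and -1.85 (adjusted p 0.115) without array weights. The corresponding difference for *Pparα* hep-/- mice was -1.52 ± 0.61 (0.0998), -1.68 (0.031) with normexp and -1.96 (0.007) without *WT* HFD mice 1 and 2. It was also called without mouse 1 (-1.76, 0.0313), 2 (-1.71, 0.0452) or 5 (-1.79, 0.0499) of that group alone. Between the deletions the difference was called in the fit to its own groups (-0.96, 0.04). On the HFD *Cidea* was 7.03-fold lower in *Pparα* hep-/- (1.45e-06) and 12.3-fold lower in *Pparα*-/- mice (5.87e-10) than in *WT* mice. On CTRL the differences from *WT* were -1.29 ± 0.45 (0.0312) and -1.15 ± 0.47 (0.0548). The first lost its call without *Pparα* hep-/- CTRL mouse 4 or 7 or *WT* CTRL mouse 4, 5 or 8, down to -1.04 (adjusted p 0.107, *WT* mouse 4), and was -1.27 (0.0771) without array weights, -0.90 (0.0832) with normexp and -1.28 (0.0663) without a filter. The second was called with 75th percentile scaling (-2.15, 0.0137), in its own groups alone (-1.13, 0.00866), without the wash batch term (-1.19, 0.0446) and with a stricter filter (-1.15, 0.0472). It also gained a call in 10 of the 48 fits that left out 1 mouse, at most -1.29 in size (0.0427, without *WT* CTRL mouse 2).

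*Cideb* varied little, from 15.34 to 16.11 over all 48 mice. Its brighter probe was called higher on the HFD in *Pparα*-/- mice (0.32 ± 0.08, limma adjusted p 0.00195), higher on CTRL after hepatocyte deletion than in *WT* mice (0.29 ± 0.08) and higher in *Pparα*-/- than in *WT* mice on HFD (0.21 ± 0.08). With 75th percentile scaling the first was 0.10 (adjusted p 0.331) and the last 0.03 (0.727), so neither was called there. The last was also 0.12 (adjusted p 0.193) without *WT* HFD mouse 8, whose absence also gave a called rise in *WT* mice (0.30, 0.011), 0.20 (0.0603) without array weights and 0.20 (0.0549) in its own groups alone. The rise in *WT* mice was also called in the deposited log2 table (0.23, 0.0421), and with 75th percentile scaling the HFD effect differed between *Pparα* hep-/- and *WT* mice (-0.33, 0.0476). The second probe gave another pattern. It rose in *WT* mice (0.28 ± 0.08, 0.0154) and was not called in *Pparα*-/- mice (-0.05 ± 0.07), so the probes differ on the genotype with a call.

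*Fitm1* and *Fitm2* encode the FIT proteins. *Fitm1* is known mainly from skeletal and heart muscle and *Fitm2* is expressed widely. *Fitm1* rose on the HFD in *WT* mice and was called in neither deletion. *WT* CTRL mice were at 9.04 to 10.43 apart from mouse 6 at 7.56, and *WT* HFD mice at 9.24 to 11.56 (median 11.31). *Pparα* hep-/- mice were at 7.23 to 9.33 (median 8.58) on CTRL and 7.42 to 9.56 (median 8.76) on HFD. Whole-body deletion gave 5.03 to 8.52 (median 7.37) and 6.12 to 7.71 (median 7.33). The diets overlapped in every genotype. The HFD effect was 1.53 ± 0.36 in *WT* mice (limma adjusted p 0.00173), -0.12 (95% interval -0.73 to 0.49) in *Pparα* hep-/- mice and -0.27 (-0.91 to 0.37) in *Pparα*-/- mice. In wash batches 1 and 2 these were 1.67 and 1.51 in *WT*, 0.58 and -0.55 in *Pparα* hep-/-, and 0.60 and -1.07 in *Pparα*-/- mice, the last called lower on the HFD (adjusted p 0.0472).

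The difference of the *Fitm1* response itself was called for both deletions. It was -1.66 ± 0.47 for *Pparα* hep-/- (limma adjusted p 0.0189) and -1.81 ± 0.48 for *Pparα*-/- mice (0.00865). Without array weights the same differences were -1.30 (adjusted p 0.284) and -1.45 (0.115), the first was -1.58 (0.0749) without a filter, and they were -1.09 and -1.07 in wash batch 1 and -2.06 and -2.58 in wash batch 2. *Fitm1* on the HFD had the largest genotype effect of the 10 genes, 19.5-fold lower in *Pparα*-/- than in *WT* mice (-4.28 ± 0.31, 1.44e-15) with no overlap of the groups. Hepatocyte deletion left it 6.54-fold below *WT* mice (9.88e-09). On CTRL the 3 genotype differences were -1.05 ± 0.35 for *Pparα* hep-/- (0.0214), -2.48 ± 0.36 for *Pparα*-/- mice (3.9e-07) and -1.42 ± 0.33 between the deletions (0.000735), the first of which was lost without *WT* CTRL mouse 4 (-0.91, 0.0662), without array weights (-1.01, 0.0719), with 75th percentile scaling (-1.15, 0.0567) and without a filter (-1.02, 0.0543).

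*Fitm2* ran over a narrower range and had the same order of genotypes. In *WT* mice it was 8.17 to 9.13 (median 8.66) on CTRL and 8.50 to 9.61 (median 9.47) on HFD. In *Pparα* hep-/- mice it was 7.78 to 8.55 (median 8.17) and 8.22 to 8.93 (median 8.59). The lowest were *Pparα*-/- mice, at 7.54 to 7.93 (median 7.79) and 7.81 to 8.30 (median 7.92), below every *WT* mouse on the same diet. The rise on HFD was 0.77 ± 0.13 in *WT* (limma adjusted p 2.54e-05), 0.36 ± 0.11 in *Pparα* hep-/- (0.0128) and 0.23 ± 0.11 in *Pparα*-/- mice (0.136). After hepatocyte deletion the value was 0.31 (adjusted p 0.07) without *Pparα* hep-/- HFD mouse 6 and 0.43 (0.0606) without array weights. That of *Pparα*-/- mice was called with the slide as a block (0.28, 0.0375) and in its own groups alone (0.24, 0.0474). The *Pparα*-/- response differed from that of *WT* by -0.55 ± 0.17 (0.0239), by -0.38 (adjusted p 0.224) without array weights and by -0.50 (0.0942) without a filter. Its call was lost without *WT* CTRL mouse 2 (-0.46, 0.061), *WT* HFD mouse 7 (-0.50, 0.0535) or *WT* HFD mouse 8 (-0.50, 0.0551), and that of *Pparα* hep-/- mice was called without *WT* CTRL mouse 7 (-0.48, 0.0489). A second *Fitm2* probe gave -0.38 ± 0.16 (0.11) for this difference, with the same direction in each genotype contrast. On the HFD *Fitm2* was below *WT* by -0.83 ± 0.11 after hepatocyte deletion and by -1.47 ± 0.11 after whole-body deletion.

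*Pnpla2* and *G0s2* stand for the lipase and its inhibitor. *Pnpla2* had no called change with diet, with log2 effects of 0.02 (95% interval -0.18 to 0.22), -0.01 (-0.18 to 0.17) and 0.13 (-0.05 to 0.31) in *WT*, *Pparα* hep-/- and *Pparα*-/- mice. It was slightly lower in *Pparα*-/- mice. On the HFD it was 12.14 to 12.60 (median 12.46) there, against 12.64 to 12.93 (median 12.76) in *WT* mice with no overlap (-0.31 ± 0.09, limma adjusted p 0.00347). On CTRL it was 11.86 to 12.78 (median 12.27) against 12.54 to 13.16 (median 12.72) in *WT* mice (-0.42 ± 0.10, 0.00111).

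*G0s2* was called in none of the 12 contrasts by limma, and had an unadjusted p under 0.05 in 1 of them, *Pparα*-/- against *Pparα* hep-/- mice on CTRL (-0.84, adjusted p 0.0972). Its level was 11.10 to 13.93 (median 13.09) in *WT* CTRL mice, and 13.42 to 14.68 in 6 *WT* HFD mice against 10.11 and 10.43 in mice 1 and 2. *Pparα* hep-/- mice were at 12.12 to 13.69 (median 13.23) and 12.88 to 14.53 (median 13.48), and *Pparα*-/- mice at 11.50 to 13.50 (median 12.30) and 11.85 to 13.55 (median 12.98). All groups overlapped. The HFD effect in *WT* mice was 0.69 ± 0.41 (adjusted p 0.272), and 1.09 (adjusted p 0.0132) when mice 1 and 2 were left out, an alternative chosen after their values were seen. *Pparα*-/- against *WT* HFD mice was called without *WT* HFD mouse 1 (-0.93, 0.0159) or mouse 2 (-0.83, 0.0422), and the deletions differed on CTRL without *Pparα*-/- CTRL mouse 6 (-1.17, 0.0251). With all mice the first was called with 75th percentile scaling (-0.85, 0.0437) and the second in its own groups alone (-0.84, 0.0233).

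On the CTRL diet, *Pparα* hep-/- mice had 2 of the 10 genes higher (*Plin4* and *Cideb*) and 4 lower (*Plin5*, *Cidea*, *Fitm1* and *Fitm2*) than *WT* mice, where 11.3% of all probes were higher and 13.4% lower. Whole-body deletion left 7 below *WT* (*Plin2*, *Plin4*, *Plin5*, *Cidec*, *Fitm1*, *Fitm2* and *Pnpla2*), with 18.7% of all probes lower. The same 7 genes were lower in *Pparα*-/- than in *Pparα* hep-/- mice, with 13.0% of all probes lower. These comparisons share their samples, so they are not independent of each other.

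On the HFD, *Pparα* hep-/- mice had 1 gene higher than *WT* mice (*Plin4*, 13.3% of all probes) and 3 lower (*Cidea*, *Fitm1* and *Fitm2*, 13.4%). Whole-body deletion left 1 above *WT* (*Cideb*, 21.8%) and 6 below (*Plin2*, *Plin5*, *Cidea*, *Fitm1*, *Fitm2* and *Pnpla2*, 24.0%). Compared with hepatocyte deletion it left 6 below (*Plin2*, *Plin4*, *Plin5*, *Cidec*, *Fitm1* and *Fitm2*, 15.4%). *Pnpla2* lay near the threshold in that contrast (-0.21, adjusted p 0.0521) and was called in 17 of 61 alternative settings, from -0.20 to -0.25. *Plin2* there was -0.61 (0.0566) without array weights, and *Cidea*, not called, was -1.55 (0.0231) with 75th percentile scaling and -0.81 (0.000878) in its own groups alone. The median log2 fold change of the 10 genes between *Pparα*-/- and *WT* mice was -1.03 on CTRL and -0.97 on HFD, beside -0.02 and -0.03 over all probes.

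**Figure D3:**
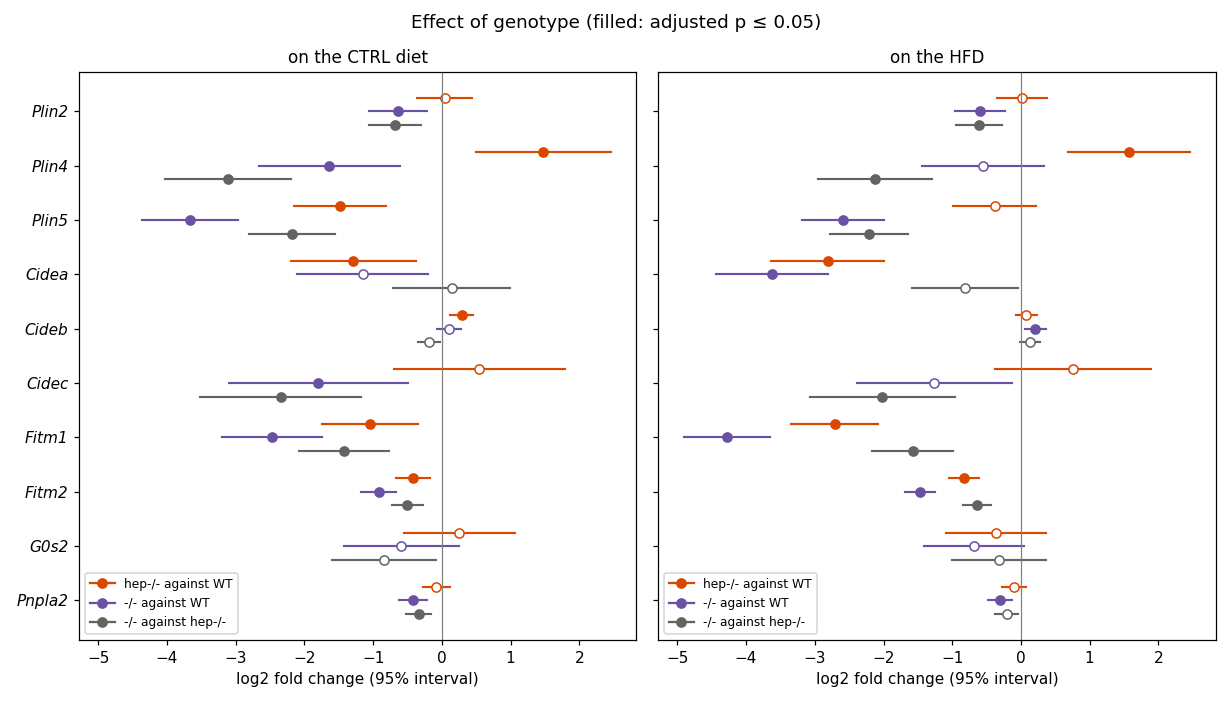
Log2 fold change between genotypes (horizontal axis) for each gene with 95% intervals of the limma fit, on the CTRL diet (left) and the HFD (right), 8 mice per group. Filled points have an adjusted p of at most 0.05. *Fitm1* and *Fitm2* lie below 0 in every comparison, and *Plin4* lies above 0 for *Pparα* hep-/- against *WT* (1.47 and 1.57) and below 0 for *Pparα*-/- against *Pparα* hep-/- mice (-3.11 and -2.12).

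Differences of the HFD effect were called for 1 gene between *Pparα* hep-/- and *WT* mice (*Fitm1*, where 10.4% of all probes were called in either direction) and for 3 between *Pparα*-/- and *WT* mice (*Cidea*, *Fitm1* and *Fitm2*, 14.3%). Between the 2 deletions limma called 0 of the 10 genes, with 1 at an unadjusted p under 0.05 (*Cideb*) and 3.42% of all probes called. For the genes that rose on the HFD in all genotypes the differences between *Pparα* hep-/- and *WT* mice were -0.03 (95% interval -0.57 to 0.52) for *Plin2*, 0.10 (-1.23 to 1.43) for *Plin4* and 0.21 (-1.48 to 1.90) for *Cidec*.

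The 10 genes varied together in part across the 48 mice. *Plin2* and *Cidec* had a Pearson correlation of 0.95, and *Plin4* and *Cidec* 0.88. These points share groups and arrays, so the coefficients describe the pattern and carry no p. Outside the set, the gene most like *Plin2*, *Plin4* and *Cidec* was *Osbpl3* (0.90, 0.87 and 0.94). *Plin5* was most like *Lgals4* and *Lgals6* (0.95 and 0.94), close paralogs whose probes may share RNA. *Cidea* was most like *Cfd* (0.89), *Cideb* like *Abhd16a* (0.83), *Fitm1* like *Proca1* and *Abcd3* (both 0.90) and *Fitm2* like *Acot8*, *Slc25a20* and *Vnn1* (0.93, 0.92 and 0.92). *G0s2* and *Pnpla2* had weaker matches, with *Ces1d* at 0.75 and *Sbf1* at 0.73.

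**Figure D4:**
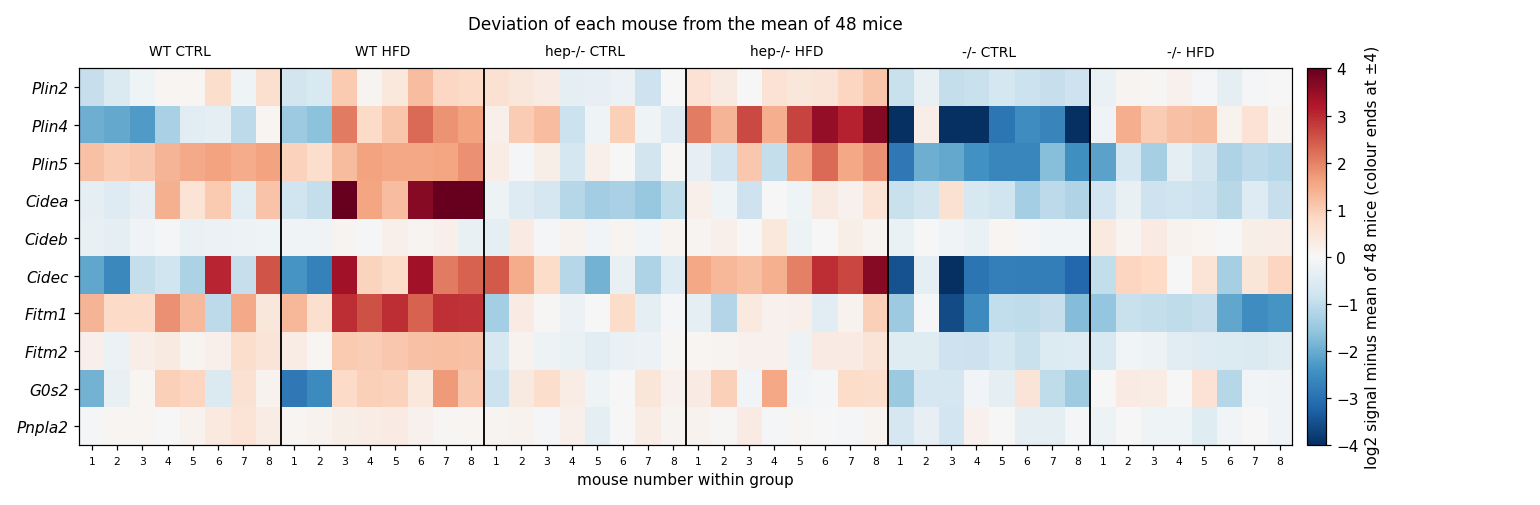
Difference of each mouse from the mean of the 48 mice on the log2 scale (colour, ending at -4 and 4), with genes in rows and mice in columns ordered by group and mouse number. *WT* HFD mice 1 and 2 are pale or blue where the other 6 mice of the group are red in *Plin4*, *Cidea* and *Cidec*, and *Pparα*-/- CTRL mouse 2 is less blue than its group in *Plin4* (11.27) and *Cidec* (10.32).

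PPARγ and genes it is known to drive in steatotic liver were looked at beside *Cidea*, *Cidec* and *Plin4*. *Pparg* rose on the HFD in every genotype, by 1.17 (*WT*), 0.94 (*Pparα* hep-/-) and 1.19 (*Pparα*-/-). Hepatocyte deletion raised it over *WT* by 0.95 on CTRL and 0.72 on HFD. After whole-body deletion the values were 0.50 (limma adjusted p 0.132) on CTRL and 0.52 (0.0527) on HFD, neither called. Of the 10 genes on that list, 4, 4 and 6 were higher on HFD in the 3 genotypes and 0 lower. Of all probes 8.60%, 9.46% and 12.2% were higher and 10.1%, 10.8% and 12.6% lower. *Mogat1*, which makes diacylglycerol, rose in *WT* mice (2.33) and was lower in *Pparα*-/- than in *WT* mice on HFD (-1.97). *Cfd*, the adipocyte protease adipsin, followed *Cidea* more closely, at 5.70 to 9.92 in *WT* CTRL mice and 13.90 to 15.51 in 6 *WT* HFD mice, with the other 2 at 5.74 and 7.49. It was 5.62 to 8.74 in *Pparα* hep-/- HFD and 5.29 to 7.46 in *Pparα*-/- HFD mice, 4 of the latter arrays being well above background. *Anxa2* and *Apoa4* went the other way, higher in *Pparα*-/- than in *WT* HFD mice by 2.59 and 2.42, and *Cd36*, a fatty acid carrier, was higher in *Pparα* hep-/- CTRL mice by 1.84.

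Target genes of PPARα in fatty acid oxidation were counted as a reference for *Fitm1*, *Fitm2* and *Plin5*. Of 24 genes, 18 rose on the HFD in *WT* mice, 12 after hepatocyte deletion and 13 after whole-body deletion, while 0, 1 and 0 fell, beside the 8.60%, 9.46% and 12.2% of all probes that rose and the 10.1%, 10.8% and 12.6% that fell. Against *WT* mice on the HFD, 15 were lower in *Pparα* hep-/- and 18 in *Pparα*-/- mice, with 1 and 0 higher, where 13.4% and 24.0% of all probes were lower and 13.3% and 21.8% higher. *Vnn1* (pantetheinase) was -4.70 and *Cyp4a10* and *Cyp4a14* (fatty acid hydroxylases) -3.67 and -2.39 in *Pparα*-/- against *WT* HFD mice. *Pdk4*, which brakes pyruvate oxidation, was higher on CTRL after hepatocyte deletion than in *WT* mice (2.69), and so were the thioesterases *Acot1*, *Acot2* and *Acot3* (1.82, 1.83 and 2.27). The probes of these 3 thioesterases may share signal, which was not tested. *Fgf21*, a liver hormone, was well above background on 1 of 8 *Pparα*-/- CTRL arrays, where it read 4.79 to 6.23, against 7.24 to 10.23 in *WT* CTRL and 7.07 to 8.70 in *Pparα*-/- HFD mice.

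Of 30 further droplet genes 29 were tested, since *Plin1*, the perilipin of adipocytes, was well above background on at most 6 of 48 arrays by any of its probes. On the HFD 8, 4 and 7 of them were higher and 4, 6 and 6 lower in *WT*, *Pparα* hep-/- and *Pparα*-/- mice, with medians of 0.02, -0.02 and 0.04, beside 8.60%, 9.46% and 12.2% of all probes higher and 10.1%, 10.8% and 12.6% lower. Whole-body deletion left 3 above and 9 below *WT* mice on CTRL, where 15.6% of all probes were higher and 18.7% lower, and 2 above and 14 below on HFD, where these shares were 21.8% and 24.0%. *Pnpla3* and *Pnpla5*, acylglycerol lipases of the family of *Pnpla2*, fell on HFD. *Pnpla5* was 8.07 to 12.04 in *Pparα* hep-/- CTRL and 5.21 to 7.26 in *Pparα* hep-/- HFD mice, which do not overlap (-3.44), and fell by 1.95 in *WT* mice on the log2 scale. *Pnpla3* changed by -1.73 and -1.89 in these genotypes. On the CTRL diet both were lower in *Pparα*-/- than in *WT* mice, by -3.19 (*Pnpla5*) and -1.50 (*Pnpla3*), each well above background on 4 of 8 *Pparα*-/- CTRL arrays, and *Pnpla3* on 3 of 8 *WT* HFD arrays. *Nceh1*, a cholesterol ester hydrolase, was lower in *Pparα*-/- than in *WT* mice (-1.06 on CTRL and -1.05 on HFD), and *Ces1d*, a triglyceride hydrolase, rose in *WT* HFD mice (1.00).

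**Figure D5:**
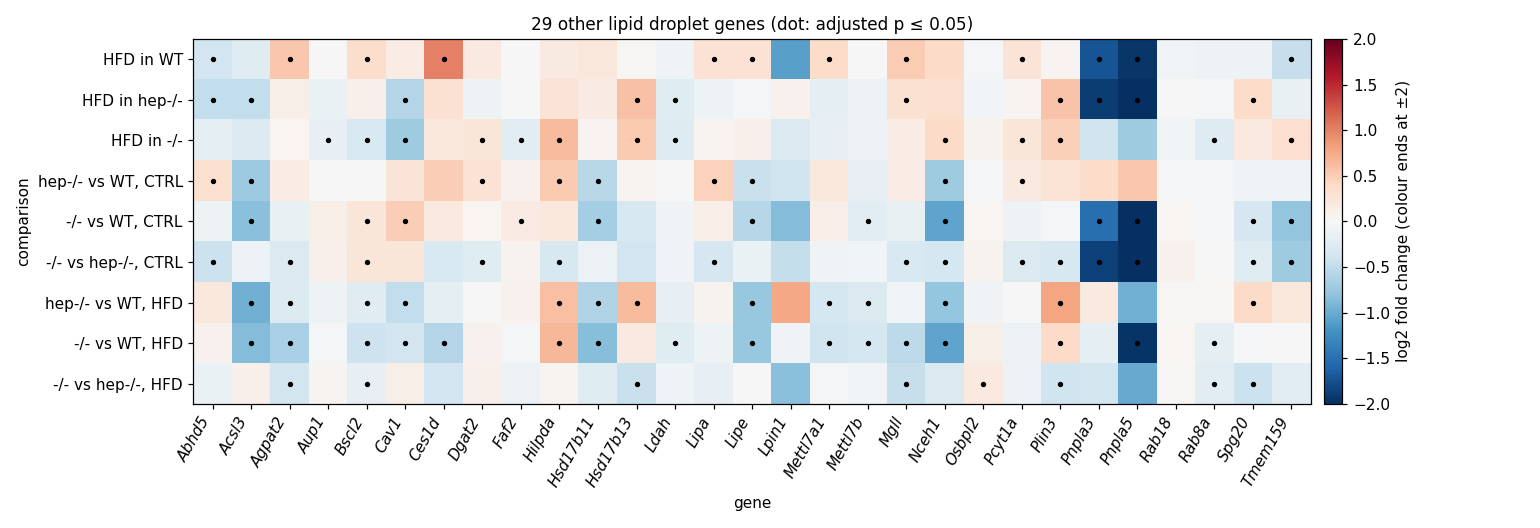
Log2 fold change (colour, ending at -2 and 2) of 29 other lipid droplet genes (columns) in 9 comparisons of 8 mice per group (rows), with a dot where the adjusted p is at most 0.05. *Pnpla3* and *Pnpla5* are the darkest blue columns, with *Pnpla5* at -3.44 on HFD in *Pparα* hep-/- mice and -3.19 in *Pparα*-/- against *WT* CTRL mice.

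Markers of other cell types were read on the same arrays because *Plin4*, *Cidea* and *Cidec* are genes of adipocytes and *Fitm1* of muscle. Of 10 white adipocyte markers 7 were tested. *Adipoq* was well above background on 2 of 48 arrays. The list's summed log2 signal was 13.87 to 17.54 in *WT* CTRL and 15.07 to 17.12 in *WT* HFD mice. *Thrsp*, a lipogenic gene that liver also expresses, carried most of that sum, and without it the range was 9.82 to 11.27 in *WT* CTRL and 11.51 to 15.57 in *WT* HFD mice. *Cfd*, at 13.90 to 15.51 in 6 *WT* HFD mice, carried most of what was left there. In *WT* HFD mice 2 genes of the list were called higher (*Cfd*, 5.79, and *Adrb3*, 0.60) and 0 lower, beside 8.60% and 10.1% of all probes. *Lep*, *Retn*, *Npr3* and *Sncg* were not called (0.004, 0.06, -0.22 and 0.12). Of 7 brown adipocyte markers 5 were tested, with a summed signal of 11.28 to 12.36 and 12.02 to 13.22, 1 gene higher on HFD in *WT* mice (*Elovl3*, 1.32, beside the same 8.60%) and *Ucp1* well above background on 0 of 48 arrays. Without *Elovl3*, the brightest of them, the summed signal was 11.07 to 11.77 in *WT* CTRL and 10.65 to 11.36 in *WT* HFD mice. Of 8 muscle markers 6 were tested, with *Ckm* well above background on at most 3 arrays. Their summed signal was 8.85 to 9.51 in all groups but *WT* CTRL, where mouse 8 reached 12.13 with *Fitm1* at 9.04.

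The 12 macrophage markers were all tested. On the HFD 0 rose in *WT* mice, 6 after hepatocyte deletion and 9 after whole-body deletion, with 1, 0 and 0 falling. Of all probes 8.60%, 9.46% and 12.2% rose and 10.1%, 10.8% and 12.6% fell. On that diet 8 and 11 were higher than in *WT* mice in *Pparα* hep-/- and *Pparα*-/- mice and 0 lower. Of all probes 13.3% and 21.8% were higher there and 13.4% and 24.0% lower. The summed signal was 14.16 to 16.29 in *WT* HFD, 15.14 to 16.41 in *Pparα* hep-/- HFD and 15.47 to 16.46 in *Pparα*-/- HFD mice. *Trem2*, a lipid receptor of macrophages, was at its highest in single mice that also had high *Cidec*. It was 11.74 in *WT* CTRL mouse 6, 12.46 in *Pparα* hep-/- CTRL mouse 1 (*Cidec* 13.10) and 11.77 in *Pparα*-/- CTRL mouse 2, against group medians of 8.60, 9.45 and 8.23. The arrays of *WT* CTRL mouse 6 and *Pparα* hep-/- CTRL mouse 1 had the lowest weights (0.208 and 0.189). *WT* CTRL mouse 8, with *Cidec* at 13.16, is not among these mice. The part of macrophages in the levels of the 10 genes was not tested.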

How the data were processed

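The authors hybridised Cy3-labelled liver RNA of 48 mice to Agilent arrays (design 74809 per the file headers) and extracted spot intensities with Feature Extraction 10.10.1.1, per the labels and the file headers. The intensity used here is the median of a spot's pixels as deposited, neither background subtracted nor normalized. The authors also deposited a table of log2 values, which they had filtered, corrected for the wash bath and quantile normalized. It served as an alternative and correlated with the values used here at r of 0.9994 to 0.9995 per array over 32815 shared probes.

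Spots flagged as outliers were dropped and the log2 intensities of a probe's spots averaged. A probe entered the tests if it was well above background in at least 4 mice of 1 group (33323 probes). Quantile normalization covered all 48 arrays. The model, in limma 3.58.1 and R 4.3.3, had a term for each group and for the wash batch and weighted arrays by how closely they followed the fit. It gave 12 contrasts, each with Benjamini-Hochberg adjustment over its probes. Reported fold changes are weighted and batch adjusted, so they can differ from differences of the plain group medians. The code was tested on simulated data. Alternatives were normexp with an offset of 50, scaling to the 75th percentile, no filter or a stricter one, no array weights, no wash batch, single wash batches, the slide as a block, the groups of a contrast alone, the mouse number as a replicate block, the authors' table and leaving out each mouse.

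The 10 genes, the related lists and the markers were chosen with earlier results of these data known. All 10 genes are named in each contrast, and of the related lists those genes called with a log2 fold change of at least 1 in size, at most 8 per list. Markers of cell types are named without that limit. Probe positions are mm9 as in the files. Sequences and positions are printed for some of the 10 genes only. The labels give 12 weeks of diet, and the study's text gives another duration.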

Additional observations from a re-analysis of the deposited data

Results flagged for a closer look

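Of 60 sets of 8 mice (10 genes in 6 groups), 6 held a mouse whose gap to the nearest other mouse passed Dixon's 95% critical value as a share of the whole range. Chance gives about 1 in 20 such sets. *Pparα*-/- CTRL mouse 2 was the highest of its group in *Plin2* (14.32), *Plin4* (11.27) and *Cidec* (10.32), and it was also the highest there in *Trem2* (11.77). *Cidea* stood out in *Pparα*-/- CTRL mouse 3 (7.13), *G0s2* in *Pparα*-/- HFD mouse 6 (11.85) and *Pnpla2* in *Pparα*-/- HFD mouse 5 (12.14), the last 2 as the lowest of their groups.

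The HFD effect differed between genotypes, by the limma test of the difference itself, for *Fitm1* in *Pparα* hep-/- against *WT* mice (-1.66) and in *Pparα*-/- against *WT* mice (-1.81), and for *Cidea* (-2.48) and *Fitm2* (-0.55) in *Pparα*-/- against *WT* mice.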

How the results depend on the processing

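No called value changed direction under any alternative, and of 3741 values called in neither setting 151 had the opposite sign. Of the 120 values, only those called over all arrays can lose a call. Dropping the array weights ended 18 of these calls, and the fits to wash batch 1 or 2 alone, with fewer mice, ended 31 and 26. Without array weights the calls among the 10 genes fell to 1 for HFD in *Pparα* hep-/- mice, 3 for *Pparα* hep-/- against *WT* on CTRL, and 0 and 0 for the differences of the HFD effect from *WT* in *Pparα* hep-/- and *Pparα*-/- mice. The difference for *Pparα* hep-/- numbered 2 genes with normexp, 2 with 75th percentile scaling, 0 without a filter and 3 without *WT* HFD mice 1 and 2. It numbered 1 to 2 when each mouse was left out in turn. *Pparα* hep-/- against *WT* on CTRL gave 3 without a filter, and the difference between the deletions 1 in the fit to its own groups. In wash batch 1 alone, with fewer mice by construction, the counts were 3 for HFD in *Pparα* hep-/-, 3 for HFD in *Pparα*-/-, 1 for *Pparα* hep-/- and 3 for *Pparα*-/- against *WT* on CTRL, 1 between the deletions on CTRL, 4 for *Pparα*-/- against *WT* on HFD, and 0 and 0 for the differences from *WT*. In wash batch 2 alone they were 1 for HFD in *WT*, 2 for HFD in *Pparα* hep-/-, 1 and 4 for *Pparα* hep-/- and *Pparα*-/- against *WT* on CTRL, and 0 and 1 for the differences from *WT*.

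With the mouse number as a replicate block, 1 of 120 values changed its call, that of *Plin4* in *Pparα* hep-/- against *WT* mice on CTRL (1.22, adjusted p 0.0562), which took that count from 6 to 5. Mice with the same number deviated together no more than others (median r of 0.0206 over 120 pairs against -0.00158 over 840), so the samples share only a number. Leaving out 1 mouse at a time gave 5 to 7 called genes for HFD in *WT*, 4 to 6 in *Pparα* hep-/- and 5 in *Pparα*-/- mice. Without the 4 arrays of weight under 0.4, an alternative chosen after seeing the data, 118 of 120 values kept their call, and *Cidec* (-1.34, adjusted p 0.0379) and *G0s2* (-0.86, 0.0427) were called lower in *Pparα*-/- than in *WT* HFD mice. Without *WT* HFD mice 1 and 2, *G0s2* was called in *Pparα* hep-/- (-0.77, 0.045) and *Pparα*-/- (-1.09, 0.0018) against *WT* HFD mice and *Fitm2* for the difference of the HFD effect in *Pparα* hep-/- mice (-0.50, 0.0208). In that setting the HFD effect in *WT* mice was 0.86 (*Plin2*), 2.88 (*Plin4*), 3.09 (*Cidea*), 2.95 (*Cidec*) and 1.72 (*Fitm1*), all called. *Plin4* in *Pparα* hep-/- against *WT* HFD mice was 1.25 (adjusted p 0.0252). The differences of the HFD effect for *Pparα* hep-/- mice were -0.23 (*Plin4*) and -0.27 (*Cidec*), neither called. Dim signal limits *Cidea* in the groups where it was not well above background.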

Other observations

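The 3 *Pparα* hep-/- HFD mice with low *Plin5* (mice 1, 2 and 4, at 11.09 to 11.71) did not have the lowest values of the group in most of the other genes. The lowest *Plin4* and *Fitm1* were those of mouse 2. Mouse 3 had the lowest *Plin2* (14.61), *Cidea* and *Cidec*, mouse 5 the lowest *Cideb*, *Fitm2* and *G0s2*, and mouse 7 the lowest *Pnpla2*. The cause of the split in *Plin5* was not tested.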
